A study of Mus musculus with 7 samples.

Results

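The choroid plexus epithelium is described here through 10 of its characteristic genes, Ttr, Enpp2, Sostdc1, Kl, Folr1, Aqp1, Slc4a5, Kcnj13, Clic6 and Otx2, out of 37620 gene identifiers counted in 7 mouse brain tumours. The genes were taken as a named list of choroid plexus genes, and each was read from the raw count tables without a filter on low counts. All 10 were present in the tables. Levels are given in CPM, counts scaled to a common library size with TMM factors.

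There were 3 GSC2 tumours, from cells labelled shp53, Nf1-/-, CDK4, and 4 GSC1 tumours, from cells labelled lgT/Ras. Both are glioblastoma stem-like lines made from neural stem cells, with the subventricular zone as their labelled source, and were kept in culture for 10 to 15 passages before 50000 cells were placed in the brain of each nude mouse. Each line was a single combination of changes, and the age of the mice is not given in the sources used here. Implanted cells and host are both mouse, so the counts do not separate tumour RNA from host RNA. Libraries held 18643155 to 32643408 reads on genes. GSC2 replicate 3, GSC1 replicate 3 and GSC1 replicate 4 stood apart by transcript length. Long genes (8000 bases or more) were lower than short ones (2000 bases or fewer) there, with differences in median log2 deviation of -0.70, -0.40 and -0.36, while the other libraries had 0.02 to 0.64.

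The choroid plexus is a frond of vessels and stroma within the brain ventricles, covered by a single layer of epithelial cells that secretes the cerebrospinal fluid. These cells move sodium, bicarbonate, chloride and water across an epithelium sealed by tight junctions, carry folate into the fluid, and release transthyretin and other proteins into it. They lie next to, and share an origin with, the ciliated ependyma that lines the ventricle wall.

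The 10 genes did not follow the line of origin. In 9 of the 10, all but Aqp1, the 3 GSC2 tumours and GSC1 replicate 4 had the highest levels, while GSC1 replicates 1, 2 and 3 had the lowest. For 8 of the 10 the order from high to low began with GSC1 replicate 4, then GSC2 replicate 3, GSC2 replicate 2 and GSC2 replicate 1. The highest level of all 7 tumours was in GSC1 replicate 4 for 8 of the 10 genes, against 12.4% of the 16068 genes tested. Summed over the 10 genes, the level was 2949, 4577 and 7703 CPM in GSC2 replicates 1 to 3, and 126, 158, 525 and 15249.6 CPM in GSC1 replicates 1 to 4. The sum took 0.311 to 0.736% of the reads on genes in the GSC2 tumours and 1.48% in GSC1 replicate 4, but 0.0134 to 0.0477% in GSC1 replicates 1 to 3. In bulk tissue, fewer choroid plexus cells and less RNA per such cell cannot be told apart.

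**Figure D1:**
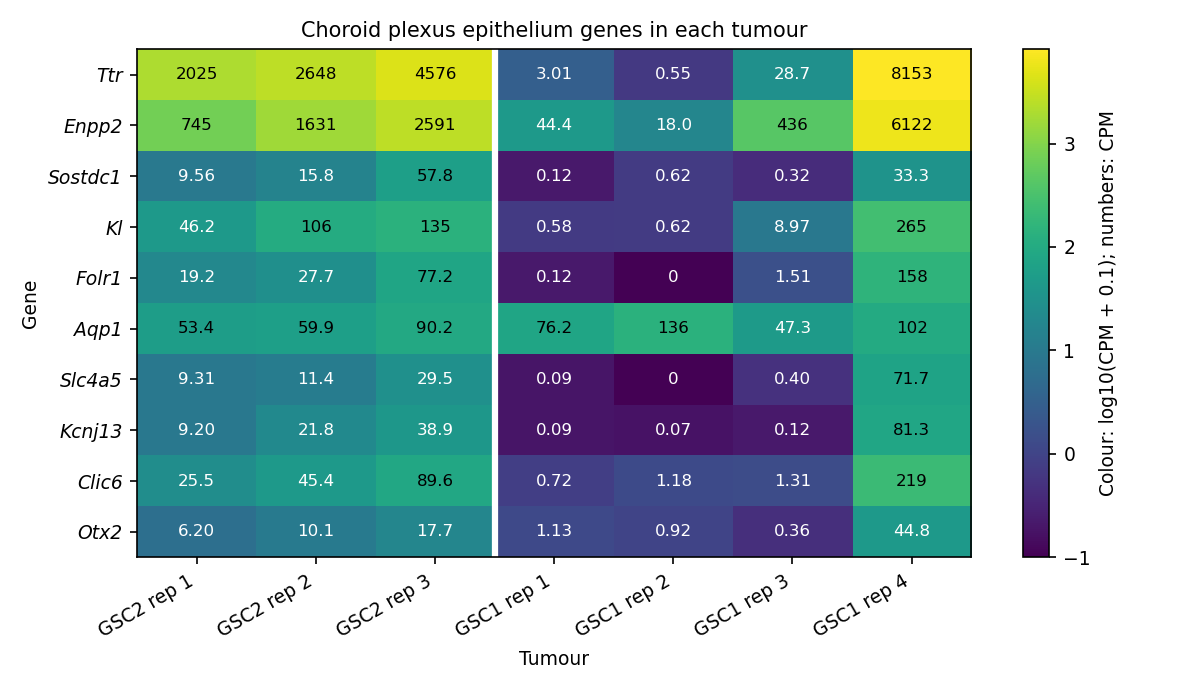
CPM of the 10 choroid plexus genes (rows) in each tumour (columns, GSC2 left of the white line and GSC1 right of it), with colour on a log10 scale after adding 0.1. In all rows but Aqp1 the GSC1 replicate 4 cell is nearer to the GSC2 cells than to those of GSC1 replicates 1 to 3, and Aqp1 is the row without dark cells, at 47.3 CPM or more in every tumour.

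Of the secreted proteins, Ttr and Enpp2 held most of the members' summed CPM in 5 of the 7 tumours. Ttr encodes transthyretin, which carries thyroxine and the retinol-binding protein, and is the most abundant transcript of this epithelium. It was at 2025, 2648 and 4576 CPM in GSC2 replicates 1 to 3 and at 3.01, 0.551, 28.7 and 8153 CPM in GSC1 replicates 1 to 4. The lines overlapped, because 1 GSC1 tumour was above and 3 were below every GSC2 tumour. The lowest GSC1 value, in replicate 2, rested on 15 reads (95% Poisson interval 0.308 to 0.909 CPM, counting error only), against 171489 reads in GSC1 replicate 4. Enpp2 encodes autotaxin, a secreted enzyme that makes the signalling lipid lysophosphatidic acid. It was at 745, 1631 and 2591 CPM in the GSC2 tumours and at 44.4, 17.97, 436 and 6121.5 CPM in the GSC1 tumours. The lowest GSC2 tumour was 1.71 times GSC1 replicate 3, a narrower gap than for Ttr, where it was 70.6 times. Ttr and Enpp2 together made up 93.0 to 93.9% of the summed CPM of the 10 genes in the GSC2 tumours, and 37.5, 11.7, 88.5 and 93.6% in GSC1 replicates 1 to 4.

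Sostdc1 and Kl encode the other proteins that reach the fluid. Sostdc1, a secreted antagonist of BMP and Wnt signals, was at 9.56, 15.8 and 57.8 CPM in GSC2 replicates 1 to 3 and at 0.116, 0.625, 0.318 and 33.3 CPM in GSC1 replicates 1 to 4. It was the only member whose highest level lay in a GSC2 tumour, and it spread the most among the GSC2 tumours, 6.05-fold between replicates 3 and 1, against 1.69- to 4.22-fold for the other members. Kl encodes alpha-klotho, a membrane protein that is shed into the fluid and serves as co-receptor for the hormone FGF23. Kl was at 46.2, 106 and 135 CPM in the GSC2 tumours and at 0.579, 0.625, 8.97 and 265 CPM in the GSC1 tumours. GSC1 replicate 3 again lay between the other low tumours and the high ones.

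Among receptors, channels and transporters, Folr1, Kcnj13 and Slc4a5 had 4 reads or fewer in GSC1 replicates 1 and 2. Folr1, the gene for folate receptor alpha, which carries folate across the epithelium, was at 19.2, 27.7 and 77.2 CPM in GSC2 replicates 1 to 3 and at 0.116, 0, 1.51 and 158 CPM in GSC1 replicates 1 to 4. The 0 reads of GSC1 replicate 2 allow up to 0.110 CPM, the level of 3 reads. Kcnj13, which encodes the inwardly rectifying potassium channel Kir7.1, was at 9.20, 21.8 and 38.9 CPM in the GSC2 tumours and at 81.3 CPM in GSC1 replicate 4. In GSC1 replicates 1, 2 and 3 it had 3, 2 and 3 reads, or 0.0869, 0.0735 and 0.119 CPM. It was thus near the counting limit in all 3. An exon of Gigyf2 overlaps Kcnj13 on the opposite strand, and the sources used here do not give the strand setting of the counting, so their shared reads cannot be told apart. Gigyf2 was at 77.5, 67.3 and 26.2 CPM in the GSC2 tumours and at 75.0, 104, 27.3 and 39.4 CPM in the GSC1 tumours. Slc4a5, the sodium bicarbonate cotransporter NBCe2, was at 9.31, 11.4 and 29.5 CPM in the GSC2 tumours and at 0.0869, 0, 0.397 and 71.7 CPM in the GSC1 tumours. Clic6, of the chloride intracellular channel family, was at 25.5, 45.4 and 89.6 CPM in the GSC2 tumours and at 0.724, 1.18, 1.31 and 219 CPM in the GSC1 tumours.

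Otx2, the homeodomain transcription factor needed to form and keep this epithelium, was at 6.204, 10.1 and 17.7 CPM in GSC2 replicates 1 to 3 and at 1.13, 0.919, 0.357 and 44.8 CPM in GSC1 replicates 1 to 4. GSC1 replicate 3 was the lowest, at 9 reads, which of the other members held only for Aqp1. Its annotated antisense partner Otx2os1 shares exon sequence with it in a later annotation, so reads of the pair cannot be told apart here.

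Aqp1, the water channel of the ventricular face of the epithelium, did not show this pattern. It was at 53.4, 59.9 and 90.2 CPM in the GSC2 tumours and at 76.2, 136, 47.3 and 102 CPM in the GSC1 tumours, so that the highest tumour was GSC1 replicate 2, where Ttr was lowest. Aqp1 is also made by vascular endothelium outside the normal brain, by red blood cells and by some glioma cells. Markers of endothelium, summed over 9 genes, ranged from 234 to 342 CPM in the GSC2 tumours and from 303 to 382 CPM in the GSC1 tumours. Flt1, the VEGF receptor 1 gene, was at 83.3, 114 and 44.7 CPM in the GSC2 tumours and at 134, 199, 55.3 and 73.1 CPM in the GSC1 tumours. Cldn5, a tight junction gene of brain vessels, was at 36.2, 57.2 and 69.2 against 58.5, 43.2, 89.1 and 84.8 CPM. Flt1 was the only 1 of the 9 endothelial markers that, like Aqp1, was highest in GSC1 replicate 2. Red cell markers, summed over 7 genes, ran from 145 to 543 CPM in the GSC2 tumours and from 20.6 to 230 CPM in the GSC1 tumours, with the lowest sum in GSC1 replicate 2. Hbb-bs, a beta globin gene, was at 80.6, 283 and 138 against 23.5, 10.99, 138 and 109 CPM, and Hba-a1, an alpha globin gene, at 44.3, 176 and 86.7 against 15.6, 7.06, 67.4 and 58.6 CPM. The part of these cells in the Aqp1 level was not tested.

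Promoters of members that moved together are shown beside that of Aqp1, which did not move with them. RefSeq promoter sequences (build GRCm38.p6) were matched for 5 of the 10 genes, with 8 annotated starts. Each window runs from 250 bases before to 50 bases after the start, 5′ to 3′ on the strand of the gene. Capitals mark TAAT, the core that homeodomain proteins bind, read as ATTA on the other strand. They also mark its extension TAATCC, the form preferred by Otx proteins, which is read on the other strand as GGATTA.
Kcnj13 (chr1:87394680-87394979, minus strand): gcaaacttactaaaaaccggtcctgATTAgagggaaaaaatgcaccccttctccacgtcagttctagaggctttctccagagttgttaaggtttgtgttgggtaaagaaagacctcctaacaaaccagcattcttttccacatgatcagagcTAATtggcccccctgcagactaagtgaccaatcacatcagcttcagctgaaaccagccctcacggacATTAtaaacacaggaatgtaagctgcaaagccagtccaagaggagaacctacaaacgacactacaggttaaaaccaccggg
Slc4a5 (chr6:83237125-83237424, plus strand): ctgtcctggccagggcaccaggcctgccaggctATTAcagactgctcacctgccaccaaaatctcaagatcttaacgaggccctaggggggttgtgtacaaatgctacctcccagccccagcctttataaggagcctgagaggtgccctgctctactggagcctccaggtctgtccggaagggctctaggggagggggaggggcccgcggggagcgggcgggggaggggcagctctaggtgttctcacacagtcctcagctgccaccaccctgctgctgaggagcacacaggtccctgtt
Kl (chr5:150952357-150952656, plus strand): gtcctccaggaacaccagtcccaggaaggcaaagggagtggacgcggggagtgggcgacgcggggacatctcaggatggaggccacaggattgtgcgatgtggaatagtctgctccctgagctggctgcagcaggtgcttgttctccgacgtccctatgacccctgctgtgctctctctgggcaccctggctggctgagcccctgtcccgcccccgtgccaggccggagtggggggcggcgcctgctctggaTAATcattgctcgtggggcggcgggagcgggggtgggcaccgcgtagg
Otx2 (chr14:48665060-48665359, minus strand): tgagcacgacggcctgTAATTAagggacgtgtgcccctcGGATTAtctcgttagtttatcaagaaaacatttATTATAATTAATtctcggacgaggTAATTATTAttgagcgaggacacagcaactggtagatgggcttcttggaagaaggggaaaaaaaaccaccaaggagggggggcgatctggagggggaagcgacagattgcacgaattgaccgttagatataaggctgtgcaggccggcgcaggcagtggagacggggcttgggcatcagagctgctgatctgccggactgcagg
Aqp1 (chr6:55336049-55336348, plus strand): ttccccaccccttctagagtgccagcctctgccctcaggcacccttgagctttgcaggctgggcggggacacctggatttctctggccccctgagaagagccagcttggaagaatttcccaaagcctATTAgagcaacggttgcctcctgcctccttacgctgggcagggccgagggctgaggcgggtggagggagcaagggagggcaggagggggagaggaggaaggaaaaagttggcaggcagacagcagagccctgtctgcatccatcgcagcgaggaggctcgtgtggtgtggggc
TAAT or its reverse was in all 8 windows, as in 58% of 32851 promoters of the same length. TAATCC or its reverse was in 1 of the 8, and in 7.06% of all promoters. Otx2 has 4 of the 8 starts, and the 1 shown was chosen for that match, with 10 matches of the core against 5, 2 and 1 at its other starts. For Aqp1 the bases after the start were not found in an annotated GENCODE transcript of the gene, unlike for the other windows. The TAAT core lies within TAATCC, so each match of the longer word counts for both.

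Levels of different genes were compared per kilobase of the longest annotated transcript. Ttr ranked first and Enpp2 second in all 3 GSC2 tumours and in GSC1 replicate 4, with Ttr at 1707, 2233 and 3858 CPM per kilobase in the GSC2 tumours and 6875 in GSC1 replicate 4. Enpp2 followed at 241, 527 and 837 in the GSC2 tumours and 1978 in GSC1 replicate 4. Slc4a5 and Otx2 ranked lowest in the same 4 tumours, with Slc4a5 at 1.82 to 5.76 CPM per kilobase in the GSC2 tumours and 14.0 in GSC1 replicate 4. In GSC1 replicates 1 and 2 the order was another, with Aqp1 first, at 29.0 and 51.8 CPM per kilobase, and Enpp2 second, at 14.3 and 5.81. In GSC1 replicate 3 Enpp2 was first, at 141 CPM per kilobase, and Ttr second, at 24.2.

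Each member was also set against Ttr within a tumour. Kl had 22.8, 40.1 and 29.4 reads per 1000 Ttr reads in GSC2 replicates 1 to 3 and 32.5 in GSC1 replicate 4, while its level ranged over 46.2 to 135 CPM and 265 CPM. Kcnj13 had 4.55, 8.22 and 8.50 in the GSC2 tumours and 9.97 in GSC1 replicate 4. Otx2 had 3.06, 3.81 and 3.88 in the GSC2 tumours and 5.49 in GSC1 replicate 4. Folr1, Slc4a5, Clic6, Kcnj13, Otx2 and Enpp2 were each higher relative to Ttr in GSC1 replicate 4 than in any GSC2 tumour. Sostdc1 was the reverse, with 4.72, 5.97 and 12.6 reads per 1000 Ttr reads in the GSC2 tumours and 4.08 in GSC1 replicate 4 (95% counting interval 3.78 to 4.40). GSC1 replicate 4 is 1 tumour, so these differences have no replicate on that side. In GSC1 replicate 3, with 723 Ttr reads, the members spread from 4.15 reads per 1000 Ttr reads for Kcnj13 (95% counting interval 0.854 to 12.2) to 15191 for Enpp2. The Kcnj13 interval there took in the values of all 4 high tumours. That of Sostdc1, at 11.1 (4.76 to 21.9), took in the GSC2 values 5.97 and 12.6, but neither 4.72 nor the value of GSC1 replicate 4. That of Slc4a5, at 13.8 (6.60 to 25.6), took in only the value of GSC1 replicate 4, 8.79. Kl, at 313, was above all 4 high tumours.

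**Figure D2:**
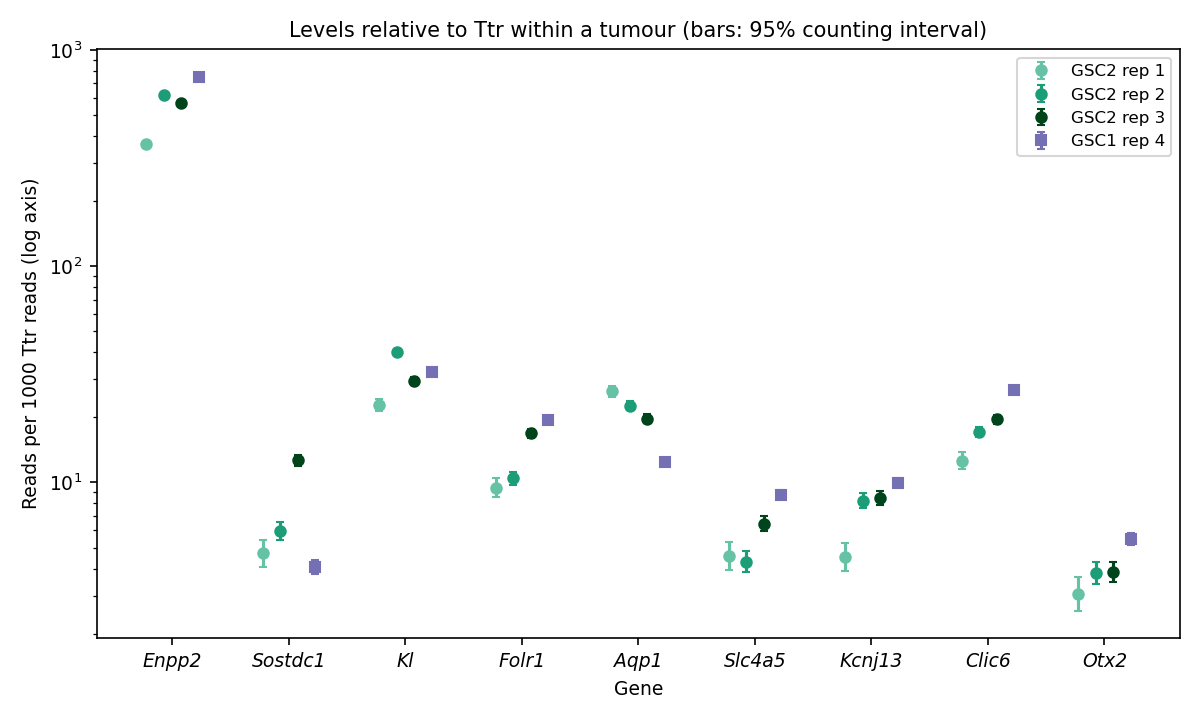
Reads of 9 choroid plexus genes per 1000 Ttr reads (log axis) in the 3 GSC2 tumours (circles) and GSC1 replicate 4 (square), with 95% counting intervals. Enpp2 lies highest, between 368 and 751, and Sostdc1 and Aqp1 are the genes at which the square is the lowest of the 4 points.

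The comparison of GSC2 with GSC1 asked whether the lines differed in these genes. None of the 10 passed edgeR's quasi-likelihood test over all 7 tumours, where 0% of 16068 genes passed at a Benjamini-Hochberg adjusted p of 0.05. At an unadjusted p under 0.05 there were 0 of the 10 as well, against 4.21% of all genes. The 10 log2 fold changes, GSC2 minus GSC1, were positive in 5 and negative in 5, with a median of 0.02 beside -0.03 over all genes tested. For Ttr the log2 fold change was 0.59 (SE 2.39), for Enpp2 -0.00 (SE 1.68), for Otx2 -0.05 (SE 1.55) and for Aqp1 -0.41 (SE 0.39). The largest of the 10 was 1.70, for Sostdc1 (SE 1.74). Standard errors of 1.55 to 2.39 for the 9 members other than Aqp1 leave room for large differences in either direction, so the missed threshold does not show that the lines were alike. Limma-voom called 0 of the 10 (0.00622% of all genes), and DESeq2 called 0 of the 7 for which it gave an adjusted p (1.19% of all genes). All 10 genes passed the low-count filter. The values of the lines overlapped for all 10, where 5.58% of all genes had lines that did not overlap.

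GSC1 replicate 4 decided the size of the difference. Without it the log2 fold change was 8.15 for Ttr (SE 1.64), 7.88 for Kcnj13 (SE 0.76), 6.68 for Slc4a5 (SE 1.19), 6.27 for Sostdc1 (SE 1.02), 6.26 for Folr1, 5.62 for Clic6 (SE 0.61), 4.81 for Kl (SE 1.25), 3.78 for Otx2 (SE 0.65) and 3.30 for Enpp2 (SE 1.24), and it was -0.38 for Aqp1 (SE 0.44). All 3 GSC2 tumours were then above all remaining GSC1 tumours for 9 of the 10 genes, against 5.01% of the genes tested. Still 0 of the 10 passed, as did 0% of all genes, and the smallest of the 10 adjusted p-values in edgeR was 0.205, for Kcnj13. Limma-voom, which averages log values, gave 7.09 for Ttr over all 7 tumours (SE 2.70), where edgeR compares means of counts.

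**Figure D3:**
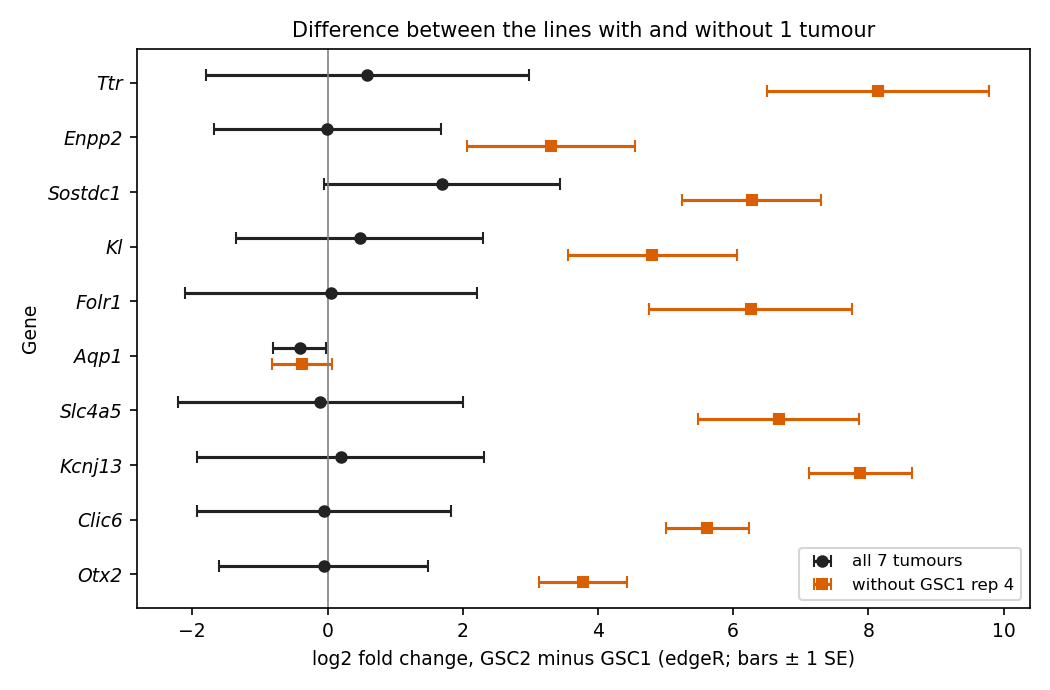
Log2 fold change of each gene, GSC2 minus GSC1, from edgeR over all 7 tumours (black circles) and without GSC1 replicate 4 (orange squares), with bars of 1 SE. The black points lie between -0.41 (Aqp1) and 1.70 (Sostdc1), with long bars except for Aqp1. All orange points but that of Aqp1 lie at 3.30 or higher.

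Leaving out the 3 libraries that stood apart by transcript length left 2 GSC2 and 2 GSC1 tumours, and 6 of the 10 genes were then higher in GSC2, where 0.19% of 15813 genes were and 0.348% passed in either direction. They were Clic6 (log2 fold change 5.23, SE 0.47, edgeR adjusted p = 0.0222), Kl (6.98, SE 0.56, 0.0222), Kcnj13 (7.51, SE 0.73, 0.0262), Folr1 (8.42, SE 0.82, 0.0274), Ttr (10.31, SE 0.94, 0.0283) and Slc4a5 (7.63, SE 0.86, 0.0333). This fit leaves out GSC1 replicate 4, in which all 6 were higher than in any other tumour.

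Other genes of the same epithelium, 35 of 36 listed, moved with the members to differing degrees. Of the 35, 0 passed in edgeR over all 7 tumours (1 had an unadjusted p under 0.05), 21 log2 fold changes were positive and 14 negative, and the median was 0.10 beside -0.03 over all genes. In 30 of the 35 the highest tumour was GSC1 replicate 4. Igfbp2, a secreted binding protein for insulin-like growth factors, was at 136, 286 and 487 CPM in GSC2 replicates 1 to 3 and at 112, 95.8, 59.3 and 496 CPM in GSC1 replicates 1 to 4. Igf2, the growth factor itself, was at 76.5, 183 and 117 CPM in the GSC2 tumours and at 5.36, 11.4, 157 and 549 CPM in the GSC1 tumours. Ace, the angiotensin-converting enzyme gene, was at 66.6, 73.6 and 82.5 against 16.7, 20.7, 20.05 and 178 CPM. These 3 genes were highest in GSC1 replicate 4, and Igf2 alone was also high in GSC1 replicate 3.

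Of the ion transporters named from the wider list, Slc12a2 and Slc4a2 were spread more evenly than Slc4a10. Slc12a2, the sodium, potassium and chloride cotransporter NKCC1, was at 181, 218 and 194 CPM in the GSC2 tumours and at 85.3, 110, 192 and 202 CPM in the GSC1 tumours. Slc4a2, an anion exchanger, was at 135, 143 and 128 against 125, 140, 107 and 177 CPM, and Slc4a10, a sodium-dependent bicarbonate transporter that neurons also make, at 38.2, 81.6 and 91.3 against 34.4, 8.49, 51.3 and 194 CPM. Vat1l, a gene of the vesicle amine transport protein family, was at 46.6, 75.7 and 85.7 against 19.8, 16.3, 237 and 300 CPM. In Slc12a2 and Slc4a2 the highest tumour was under 3 times the lowest, unlike the members other than Aqp1.

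Col8a1, the collagen VIII alpha 1 gene, went the other way, at 65.0, 68.6 and 51.5 CPM in the GSC2 tumours and 193, 240, 223 and 151 CPM in the GSC1 tumours (log2 fold change -1.71, SE 0.25, edgeR adjusted p = 0.311). Its lines did not overlap, as for 2.53% of all genes in that direction, and DESeq2 called it (adjusted p = 4.87e-09), as did edgeR with the mean level of neuron and oligodendrocyte markers as a covariate (adjusted p = 0.0297). F5, the coagulation factor V gene, was at 18.4, 38.5 and 9.52 against 1.45, 0.955, 1.03 and 25.7 CPM. Msx1, a homeobox gene, was at 12.8, 13.3 and 23.4 against 17.8, 20.3, 20.6 and 52.1 CPM, and Slco1a5, an organic anion transporter gene, at 0, 0.631 and 1.30 against 0.203, 0.661, 0.992 and 10.5 CPM. Without the 3 libraries named above 7 of the 35 were called, all higher in GSC2, where 0.19% of all genes were: Ace, F5, Mfrp, Kcne2, Cldn2, Tmem72 and 1500015O10Rik. For 6 of them, all but F5, the left-out GSC1 replicate 4 was the highest of the 7 tumours.

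The genes nearest to the members in pattern were sought among the 16068 tested. Predicted-gene names, such as Gm or Rik ones, and clone-type names were left out unless on a gene list here. Nearness was the root mean square difference of log2 CPM, each centred on its mean over the 7 tumours, from the mean profile of the 10 members. The nearest 12 other genes were Cldn2, Slc16a8, Prr32, Tmem72, Wdr86, Mfrp, Wfikkn2, Tmprss11a, Col8a2, 1500015O10Rik, Car12 and Prlr, at distances of 0.39 to 1.11. Of these, 7 were on the wider list, and 1500015O10Rik could be named only because it is on that list. Cldn2, a pore-forming tight junction protein, was at 12.2, 13.1 and 20.7 CPM in GSC2 replicates 1 to 3 and at 0.290, 0.220, 1.19 and 51.9 CPM in GSC1 replicates 1 to 4. Car12, a membrane carbonic anhydrase, was at 28.2, 40.5 and 44.4 against 4.23, 1.65, 4.33 and 103 CPM. Mfrp, a membrane protein with a frizzled-type domain, was at 16.7, 33.5 and 33.2 against 1.01, 1.14, 4.45 and 82.7 CPM. Prlr, the prolactin receptor, was at 15.7, 52.0 and 29.4 against 0.0290, 0.331, 3.65 and 119 CPM. Of the 5 not on the list, Col8a2, a collagen VIII gene, was the most abundant, at 15.7, 15.4 and 37.1 against 0.463, 0.955, 5.48 and 92.2 CPM, so that the 2 collagen VIII genes had different patterns. Wfikkn2, a secreted protein with protease-inhibitor domains, was at 5.54, 5.36 and 32.2 against 0.290, 0.441, 0.873 and 23.6 CPM. Like Sostdc1, it was highest in GSC2 replicate 3. With a prior count of 0.5 in place of 2 for the log values, 6 of the 12 were again among the nearest 12.

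**Figure D4:**
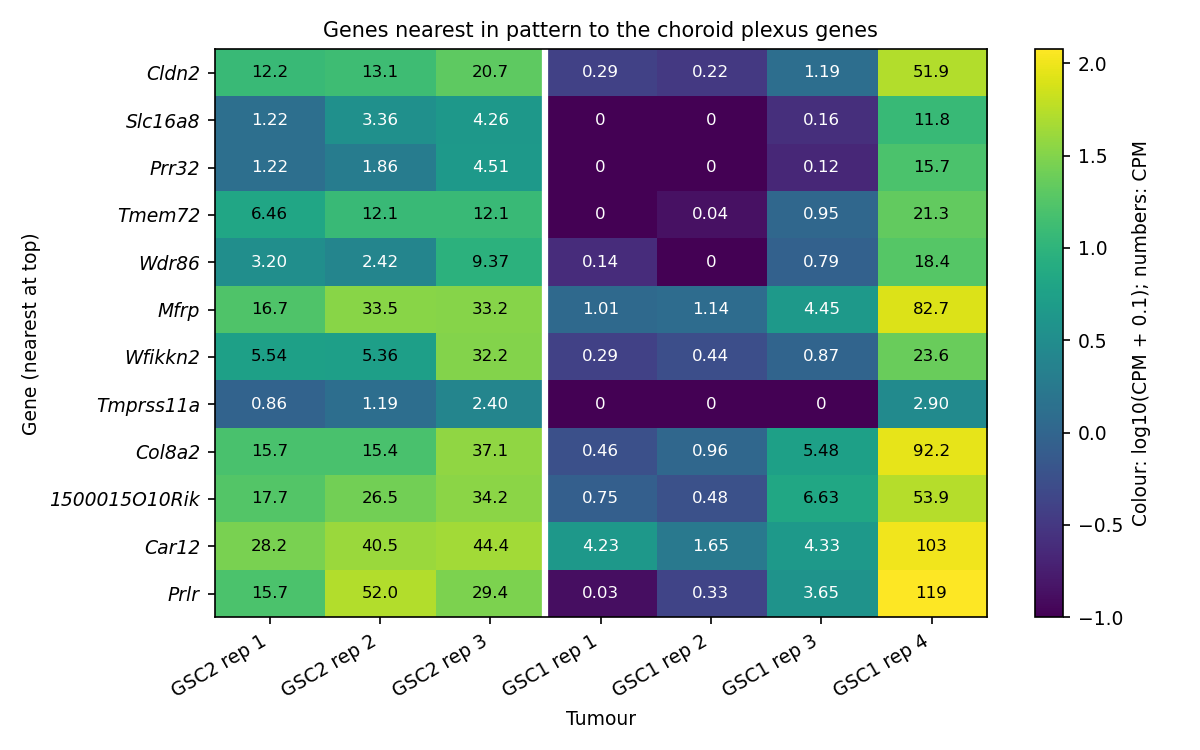
CPM of the 12 genes whose levels over the 7 tumours lay nearest to the mean profile of the choroid plexus genes (rows, nearest at the top), in GSC2 tumours left of the white line and GSC1 tumours right of it, with colour on a log10 scale after adding 0.1. Levels are under 7 CPM in GSC1 replicates 1 to 3 in every row, and the highest cell of each row is in GSC1 replicate 4 except for Wfikkn2. Predicted-gene and clone-type names were left out of the search unless on a gene list.

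Ependyma, next to the plexus, followed in part. Its 12 markers had summed levels of 38.8, 83.7 and 185 CPM in GSC2 replicates 1 to 3 and of 15.2, 11.02, 86.5 and 138 CPM in GSC1 replicates 1 to 4. Foxj1, the master factor of motile cilia, was at 15.6, 30.8 and 62.8 CPM in the GSC2 tumours and at 7.70, 4.63, 24.3 and 43.3 CPM in the GSC1 tumours. Rarres2, the chemerin gene, was at 7.48, 17.1 and 38.3 against 4.06, 3.53, 30.3 and 32.4 CPM. In GSC1 replicate 3 the sum and 8 of the 12 markers lay within the range of the GSC2 tumours, and 4 markers lay below it, while Ttr there was at 28.7 CPM and Kcnj13 at 0.119 CPM. In edgeR 0 of the 12 passed (1 had an unadjusted p under 0.05), and all 12 log2 fold changes were positive, with a median of 0.79. Over all genes tested 7437 of 16068 were positive, with a median of -0.03.

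Leptomeningeal markers moved differently again, with 11 genes summing to 205 to 375 CPM in the GSC2 tumours and to 125, 119, 1320 and 966 CPM in GSC1 replicates 1 to 4. Col1a2, a fibrillar collagen gene, was at 81.5, 90.8 and 137 against 40.6, 55.3, 769 and 312 CPM, and Dcn, the decorin gene, at 40.0, 69.5 and 71.0 against 27.2, 16.3, 151 and 132 CPM. GSC1 replicates 3 and 4 were both high, although only GSC1 replicate 4 had high Ttr. In edgeR 0 of the 11 passed, with 0 at an unadjusted p under 0.05. Of the 11 log2 fold changes 2 were positive and 9 negative, with a median of -1.51.

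Enpp2 is also made by mature oligodendrocytes, whose 10 markers summed to 2526, 7735 and 8828 CPM in GSC2 replicates 1 to 3 and to 1476, 616, 16973 and 6423 CPM in GSC1 replicates 1 to 4. Mbp, a myelin protein gene, was at 937, 2938 and 3823 against 582, 221, 5863 and 2497 CPM. Enpp2 in GSC1 replicates 1 to 3 (44.4, 17.97 and 436 CPM) stood in the same order as the summed markers and Mbp. In GSC1 replicate 4 it was 14.0 times its level in GSC1 replicate 3 although the oligodendrocyte sum was lower there. The part of oligodendrocytes in the Enpp2 level was not tested.

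A pair of tumours with nearly equal scores for brain tissue differed in the plexus genes. The score for brain tissue averaged log2 CPM of the 10 neuron and 10 oligodendrocyte markers, and was 6.39, 7.90 and 7.72 in GSC2 replicates 1 to 3 and 6.38, 5.02, 8.48 and 7.79 in GSC1 replicates 1 to 4. GSC2 replicate 1 and GSC1 replicate 1, nearly equal in score, had 2025 and 3.01 CPM of Ttr. Their oligodendrocyte sums were 2526 and 1476 CPM and their neuron sums 1003 and 1390 CPM, so the score matched them only on average. GSC1 replicate 3 had the highest score and 28.7 CPM of Ttr. Neuron markers summed to 1003 to 2504 CPM in the GSC2 tumours and to 591 to 3586 CPM in the GSC1 tumours, with Snap25, a synaptic gene, at 213, 598 and 411 against 220, 53.3, 1577 and 1383 CPM and Camk2a, a forebrain kinase gene, at 251, 507 and 832 against 291, 110, 153 and 69.8 CPM. With the score as a covariate 0 of the 10 members passed edgeR's test (0.367% of all genes), and Ttr had a log2 fold change of 3.38. Cerebellar neuron markers were high in GSC1 replicate 4, with a sum of 4.58 to 9.99 CPM in the GSC2 tumours and 2.79 to 18.9 CPM in GSC1 replicates 1 to 3, but 733 CPM in GSC1 replicate 4. Car8, a gene of Purkinje cells, was at 277 CPM there and Cbln3, of granule cells, at 245 CPM. The part of cerebellar tissue in the choroid plexus levels of that tumour was not tested.

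**Figure D5:**
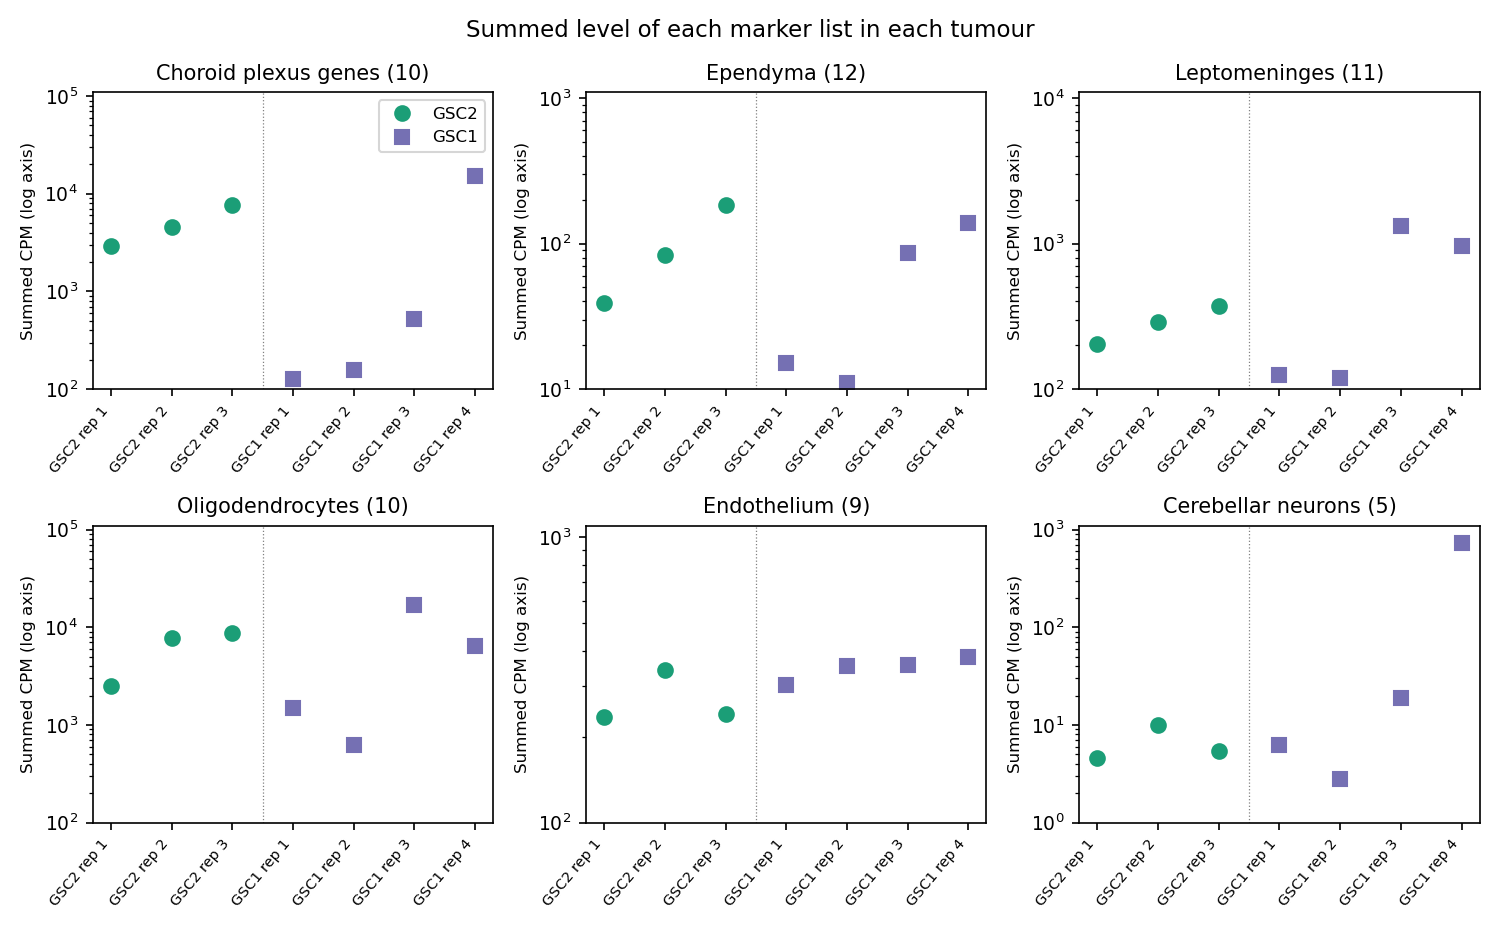
Summed CPM (log axes that differ between panels) of the choroid plexus genes and of 5 marker lists in each tumour, with GSC2 tumours as circles at the left and GSC1 tumours as squares at the right. GSC1 replicate 3 is at 525 CPM for the choroid plexus genes and has the highest sums of the leptomeningeal and oligodendrocyte lists, at 1320 and 16973 CPM.

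Other tissues that make some of these genes left little or no signal. Liver, which also makes Ttr, had 7 markers that summed to at most 0.561 CPM in the GSC2 tumours and 3.19 CPM in the GSC1 tumours, with Serpina1a at 1.66 CPM in GSC1 replicate 4 as the highest single value and Fgb at no more than 0.873 CPM. Retinal pigment epithelium, which makes Ttr, Otx2 and Kcnj13, had 9 markers with sums of 7.12 to 20.5 CPM in the GSC2 tumours and 6.21 to 17.0 CPM in the GSC1 tumours. Most of that was Rlbp1, at 4.88, 17.5 and 15.98 against 8.17, 4.34, 10.6 and 9.27 CPM, a gene that glia also make, and Rgr was at 0 in all 7 tumours. Pmel, a melanosome gene, stayed between 1.12 and 1.82 CPM in the GSC2 tumours and between 0.715 and 1.28 CPM in the GSC1 tumours. Kidney tubule, the main source of Kl in the body, had 4 markers that summed to at most 0.751 CPM in the GSC2 tumours and 0.579 CPM in the GSC1 tumours, with Slc12a1 and Slc12a3 the most abundant.

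Partners of the members, such as carriers, receptors and related genes, were listed too. Of 24 listed genes 22 were tested, 0 passed in edgeR (2 had an unadjusted p under 0.05), and 10 log2 fold changes were positive and 12 negative, with a median of -0.05. Rbp4, the plasma retinol carrier that binds transthyretin, was at 1.78, 1.19 and 1.85 CPM in the GSC2 tumours and at 8.52, 23.2, 9.33 and 14.7 CPM in the GSC1 tumours (log2 fold change -3.12, SE 0.48, edgeR adjusted p = 0.337). Its lines did not overlap, and DESeq2 called it (adjusted p = 4.60e-08), as did edgeR with the score for brain tissue as a covariate (adjusted p = 0.0315). Carrier and partner thus had unlike patterns: Rbp4 was higher in every GSC1 tumour, whatever its level of Ttr. Dio2, the deiodinase that activates thyroxine, was at 28.4, 51.0 and 40.8 against 16.3, 11.3, 53.1 and 35.0 CPM.

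Receptors and enzymes that act on the products of Enpp2, Kl and Sostdc1 were measured too. Lpar1, a receptor for lysophosphatidic acid, was at 22.3, 63.6 and 77.0 CPM in the GSC2 tumours and at 28.2, 22.8, 148 and 94.1 CPM in the GSC1 tumours. Lpar6, another such receptor, was at 29.2, 18.02 and 19.4 against 21.9, 23.0, 12.2 and 11.9 CPM. Plpp3, a phosphatase that breaks that lipid down, was at 96.6, 193 and 203 against 57.4, 62.2, 216 and 213 CPM. Fgfr1, the receptor that binds Klotho, was at 373, 254 and 223 against 371, 446, 168 and 188 CPM, while the hormone gene Fgf23 reached at most 0.198 CPM. Of the LDL receptor-related proteins that Sostdc1 binds, Lrp6 was at 92.2, 82.9 and 40.6 against 59.0, 108, 30.2 and 40.7 CPM. Lrp5 was at 66.4, 59.9 and 37.8 against 58.5, 73.4, 16.5 and 31.3 CPM, and Lrp4 at 49.3, 51.9 and 28.6 against 21.7, 24.5, 33.3 and 23.3 CPM. Lrp4 was among the 4 with the smallest p (log2 fold change 0.75, SE 0.29, adjusted p = 1.00 in edgeR). Neither Fgf23 nor any of the other 7 genes named here had its highest level in GSC1 replicate 4. Of all 24 partner genes 7 did, against 12.4% of the 16068 genes tested.

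Relatives of the members had patterns of their own. Slc19a1, the reduced folate carrier, was nearly even, at 27.0, 23.8 and 32.3 CPM in the GSC2 tumours and 26.6, 29.1, 28.0 and 37.3 CPM in the GSC1 tumours. Aqp4, the water channel of astrocytes, was at 191, 548 and 493 against 131, 124, 1244 and 1027 CPM. Otx1, the other Otx gene, was at 9.41, 6.41 and 6.46 against 7.79, 7.61, 0.595 and 1.09 CPM. In GSC1 replicate 4 Otx1 was thus low where Otx2 was at its highest, 44.8 CPM.

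GSC2 replicate 3, highest of the GSC2 tumours for all 10 members, was also the library with the most negative length value. All 10 members, with transcripts of 1186 to 5828 bases, were higher in GSC2 replicate 3 than in GSC2 replicate 2. The part of transcript length in the order of these tumours was not tested.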

How the data were processed

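Per the labels' protocols, RNA of 3 GSC2 and 4 GSC1 tumours was isolated with a Qiagen column kit and sequenced from NEBNext Ultra libraries. For each tumour the authors deposited a table of raw counts by Ensembl gene. The submitters' processing notes name TopHat2 2.0.11, HTSeq and the builds mm9 and dm3, without the role of either build. How HTSeq treated strand, and its version, is not given in the sources used here. Groups and replicate numbers come from the sample titles. Each table held 37620 identifiers. Its 5 summary lines were set aside. Reads on no gene made up 6.19 to 14.2% and reads without a unique position 12.8 to 21.0% of a library. Symbols were matched for 32897 identifiers. Of 156 entries on the gene lists 153 had a row, and the others were not analysed here.

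GSC2 was compared with GSC1 by edgeR 4.0.16 (R 4.3.3), using TMM factors, filterByExpr and the quasi-likelihood test, with p-values adjusted by Benjamini-Hochberg over all 16068 genes and called at 0.05. The SE is the absolute log2 fold change over the square root of F. The design text calls the tumours independent without saying that each came from its own mouse, so p-values measure the spread between these samples. Alternatives were RLE or no factors, no filter, a floor of 5 CPM on the mean, limma-voom (limma 3.58.1), DESeq2 1.42.0, the replicate block, the brain score as covariate, and tumours left out. Intervals (scipy 1.17.1) cover counting error only. Every pair of libraries differed beyond sampling noise (lowest chi-square per degree of freedom 70.9). The test was checked on simulated data. The 10 genes and all lists were chosen with earlier results of these data known. The rule for other named genes took the 12 nearest in pattern, the 8 most abundant and 4 with the smallest p of the wider choroid plexus list, up to 10 partners with a mean of at least 5 CPM and 4 by smallest p, and the 2 most abundant of every other list. Gigyf2, Otx2os1, Fgf23 and Rgr are named outside this rule, as are genes listed as called, and 2 genes that the rule named are not reported here.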

Additional observations from a re-analysis of the deposited data

Results flagged for a closer look

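In the GSC1 group of 4 tumours, GSC1 replicate 4 stood apart from the other 3 for 30 of the 66 genes examined, 9 of the 10 choroid plexus genes among them, with a gap to the next tumour, as a share of the whole range, above Dixon's 95% critical value. Chance flags about 1 in 20 groups, but these genes share the same 4 libraries and were chosen with earlier results of these data known. That rate therefore does not apply to the count. Of the 30, 12 were chosen for a pattern near that of the choroid plexus genes, in which GSC1 replicate 4 is high and the other 3 low, so their count adds nothing to that of the 9. Its levels were 8153 CPM for Ttr, 6121.5 CPM for Enpp2, 265 CPM for Kl, 219 CPM for Clic6, 158 CPM for Folr1, 81.3 CPM for Kcnj13, 71.7 CPM for Slc4a5, 44.8 CPM for Otx2 and 33.3 CPM for Sostdc1. Aqp1 was not among them.

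Of the genes nearest in pattern, GSC1 replicate 4 stood apart for Prlr (119 CPM), Car12 (103 CPM), Col8a2 (92.2 CPM), Mfrp (82.7 CPM), 1500015O10Rik (53.9 CPM), Cldn2 (51.9 CPM), Wfikkn2 (23.6 CPM), Tmem72 (21.3 CPM), Wdr86 (18.4 CPM), Prr32 (15.7 CPM), Slc16a8 (11.8 CPM) and Tmprss11a (2.90 CPM). Of the wider choroid plexus list it stood apart for Igfbp2 (496 CPM), Ace (178 CPM), Msx1 (52.1 CPM), F5 (25.7 CPM) and Slco1a5 (10.5 CPM). The same held for the cerebellar genes Car8 (277 CPM) and Cbln3 (245 CPM), for Serpina1a (1.66 CPM) and for Pmel (1.28 CPM).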

How the results depend on the processing

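Over all genes 0 passed edgeR's test, with 0 in each fit without 1 tumour. The count was 1 with no filter, 192 in DESeq2, 1 in limma-voom, 59 with the brain score as covariate, and 55 without GSC2 replicate 3, GSC1 replicate 3 and GSC1 replicate 4. Of the 10 members that last fit called 6, and every other setting called 0. Of the wider choroid plexus list DESeq2 called 1, the brain score fit 1 and the fit without the 3 libraries 7. Of the partner genes DESeq2 called 1 and the brain score fit 1. The other cell type lists had 0 calls in every setting. In the fits without 1 tumour the log2 fold change ranged from -0.63 to 5.62 for Clic6, -0.46 to 3.30 for Enpp2, -0.76 to 6.26 for Folr1, -0.38 to 7.88 for Kcnj13, -0.52 to 3.78 for Otx2, -0.79 to 6.68 for Slc4a5, 0.06 to 4.81 for Kl, 0.58 to 6.27 for Sostdc1, 0.14 to 8.15 for Ttr and -0.67 to -0.15 for Aqp1, the upper end coming from the fit without GSC1 replicate 4 except for Aqp1.

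The sign turned in 4 genes that were just below 0 over all tumours. In limma-voom Clic6 was at 3.78, Otx2 at 2.48, Slc4a5 at 5.19 and Enpp2 at 2.77. With the brain score they were at 0.54, 0.11, 0.96 and 0.86, and without the 3 libraries at 5.23, 2.98, 7.63 and 5.24. Enpp2 was at 0.050 with no factors, and Folr1, just above 0 over all tumours, was at -0.012 with a floor of 5 CPM on the mean. Folr1 and Kcnj13 (0.19 over all tumours) were also below 0 without GSC1 replicate 1, 2 or 3 and without GSC2 replicate 3. The cause was not tested. With the replicate block GSC1 replicate 4 has a number of its own and drops out of the contrast. Clic6, Otx2, Slc4a5 and Enpp2 were then at 5.50, 3.75, 6.94 and 4.33, and 0 of the 10 members passed. Deviations from the line means correlated at 0.58, -0.31 and 0.41 for equal numbers 1, 2 and 3. For unequal numbers the correlations ran from -0.64 to 0.70. These few values cannot show whether the numbers pair the tumours. The members' summed CPM moved by less than the spread between tumours with RLE or no factors. At the low end depth is the limit, since Kcnj13 rests on 2 or 3 reads in each of GSC1 replicates 1 to 3.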
